A study of Bos taurus with 10 samples.

Results

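Both bovine mammary glands of the series, the mammary gland parenchyma of a juvenile female and the lactating mammary gland of an adult female on d 90 of lactation, were set together against the other 8 tissues to find the CG sites at which the glands stood apart. A site was kept when both glands were lower, or both were higher, than every one of the 8 tissues, among autosomal CG sites with at least 8 reads in all 10 libraries, matched by chromosome, position and strand. The rule kept 1819 sites of 51227, of which 829 were lower and 990 higher in both glands. Of the other tissues, skeletal muscle, uterus and nucleated blood cells came from adult females, frontal cortex, abomasum and ileum from juvenile females, testis from an adult male and rumen from a male fetus. The animals were a Hereford cow whose genome was sequenced for the cattle reference and relatives of it, and each tissue was 1 library. The glands were therefore both female and postnatal, so that sex and fetal stage were not balanced between the sides, and no difference between glands and tissues has a replicate within a tissue.

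Methylation was read by RRBS, in which DNA is cut with *MspI* at CCGG, short fragments are treated with bisulfite and the share of reads that keep a cytosine gives the methylation level of that position, in percent. In mammals DNA methylation sits mostly on the cytosine of CG dinucleotides. CG-dense stretches, often at gene starts, are mostly unmethylated in all tissues, while most other CG sites are methylated, and stretches whose level differs between tissues often lie at regulatory elements that are used in some cell types only. The mammary gland is a skin-derived gland in which epithelial ducts grow within a fat pad in the juvenile and milk-secreting alveoli fill the lobules during lactation. A bulk sample mixes epithelium with fat, connective tissue and blood, so that a partial level cannot be assigned to a share of cells or to a share of alleles.

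Stretches with many members or large gaps are shown first, because the values below refer to them. They were reassembled from the 5-base reference strings deposited with each cytosine, read on the forward strand of UMD3.1. CG in capitals marks a CG at which at least 1 strand was kept by the rule, and n marks a base that no deposited string covered. Genes, exons and other annotations of UMD3.1 were not analysed here, so the regions are named by their position only. The first 4 were lower and the last 3 higher in both glands.
chr18:25832160-25832256: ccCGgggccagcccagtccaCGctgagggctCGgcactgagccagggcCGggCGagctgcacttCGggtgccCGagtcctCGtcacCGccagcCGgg
chr23:51400101-51400150: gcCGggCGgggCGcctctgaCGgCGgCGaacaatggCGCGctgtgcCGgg
chr12:89301338-89301376: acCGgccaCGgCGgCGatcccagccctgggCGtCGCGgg
chr5:120551342-120551386: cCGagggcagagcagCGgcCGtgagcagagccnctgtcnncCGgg
chr23:45472123-45472168: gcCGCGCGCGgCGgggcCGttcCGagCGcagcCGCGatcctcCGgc
chr13:81473364-81473446: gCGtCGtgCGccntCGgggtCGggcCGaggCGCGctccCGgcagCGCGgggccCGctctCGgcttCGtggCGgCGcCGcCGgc
chr19:39230287-39230313: gCGgCGggCGagggcaaggctggCGgg

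In the lower region of chromosome 18 (chr18:25832162-25832254, 93 bp), all 17 covered sites were lower in both glands. The level averaged 58.2 % ± 8.80 (SD over the 17 sites) in mammary gland parenchyma and 46.2 % ± 14.4 in the lactating mammary gland. It was 88.0 % in rumen, 91.1 % in skeletal muscle, 91.2 % in ileum, 91.4 % in nucleated blood cells, 92.3 % in abomasum, 94.8 % in uterus, 96.0 % in testis and 98.4 % in frontal cortex. Mean methylation was thus high in the 8 tissues and partial in the glands. That the means do not overlap follows from the rule, which kept all 17 sites. Across sites the levels did overlap, with abomasum at 55.6 % at 25832192 and the lactating gland at 78.9 % at 25832208. The sequence ends at both sides in CCGG, the cut site of the enzyme, and holds 10 CG, each with at least 1 member strand. A further CCGG lies inside it, at 25832208, so the region can span more than 1 fragment. Forward reads of the lactating gland were 46 at 25832191 and 19 at 25832208. The glands had 13 to 48 reads per site here and abomasum, the shallowest library, 9 to 14.

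The region on chromosome 23 at chr23:51400103-51400148 was the next largest of the lower regions, again with all of its 16 sites kept. Levels were 36.6 % ± 5.15 and 24.1 % ± 4.57 in parenchyma and lactating gland, and the 8 tissues spread from 58.4 % in rumen through a median of 81.1 % to 94.4 % in testis. Here the tissues differed among themselves by more than rumen differed from parenchyma. On chromosome 9, chr9:103668599-103668645 held 14 members of 14 sites, and it was the only 1 of the 5 largest lower regions where the lactating gland (70.0 %) was above parenchyma (58.6 %). The tissues there lay between 92.3 % in nucleated blood cells and 98.2 % in testis, with a median of 95.8 %.

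At chr12:89301340-89301374 the 13 sites averaged 27.8 % in parenchyma and 19.4 % in the lactating gland. The other tissues reached from 57.3 % in uterus to 79.9 % in abomasum with a median of 71.1 %, the lowest tissue median among the 5 largest lower regions. Chromosome 19 held the weakest of them, chr19:61631593-61631678, with 13 members among 23 sites, 78.6 % and 70.6 % in the glands and 90.2 % to 96.4 % elsewhere. The levels of its parenchyma sites spread by 16.1 points (SD), which is more than the distance of 11.7 points from that gland's mean to the lowest tissue, skeletal muscle. With sites of at least 10 reads only, the difference between the means of glands and tissues in this region went from -19.7 to -17.0 points.

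Higher levels in the glands were seen most completely at chr23:45472125-45472166, in a stretch of 42 bp with 11 CG. All 21 of its sites were kept, 10 on the forward and 11 on the reverse strand. The 8 tissues were nearly free of methylation, at 0.912 % in skeletal muscle, 0.958 % in frontal cortex, 1.37 % in testis, 1.49 % in rumen, 1.64 % in abomasum, 2.26 % in ileum, 4.48 % in uterus and 5.48 % in nucleated blood cells. Parenchyma stood at 26.9 % ± 8.0 (SD over the 21 sites) and the lactating gland at 36.4 % ± 7.76. It was the best covered of the 10 regions named by their number of members, with at least 31 reads in the glands and at least 18 in every tissue.

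In the other higher regions with many members the tissues were less uniform. In chr13:81473366-81473444, 21 of 28 sites were kept, 18 on the reverse and 3 on the forward strand. The glands differed from each other at 32.5 % ± 15.6 in parenchyma and 65.5 % ± 10.3 in lactation. The tissues ran from 10.9 % in nucleated blood cells to 21.3 % in uterus (median 14.6 %). Among the forward sites not kept, uterus (23.5 %) was above parenchyma (19.2 %) at 81473408, and every library was at 87.5 % or more at 81473396. At chr11:70645825-70645867, with 8 of 14 sites kept, the glands were at 38.6 % and 63.0 % and the tissues ran from 13.0 % to 32.7 %. Of these members 7 were on the forward strand and 1 on the reverse. At the reverse site 70645838, not kept, parenchyma (8.70 %) lay within the tissues (8.11 % in uterus to 23.5 % in nucleated blood cells). Abomasum had 8 reads at each forward site, so a minimum of 10 reads left the reverse sites only. With those, the difference between glands and tissues in this region went from 28.8 to 18.5 points. The region chr2:136482670-136482701 had 10 of its 14 sites kept. Averaged over all 14, parenchyma (54.8 %) and the lactating gland (53.1 %) were close to each other. Among the tissues, abomasum had the highest such mean (38.0 %) and nucleated blood cells the lowest (4.98 %). Abomasum had only 8 to 10 reads per site there. At chr27:33458989-33459034, with 9 of 14 sites kept, all 14 sites averaged 90.9 % and 87.5 % in the glands. The tissues lay between 36.5 % in rumen and 81.7 % in frontal cortex.

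**Figure D1:**
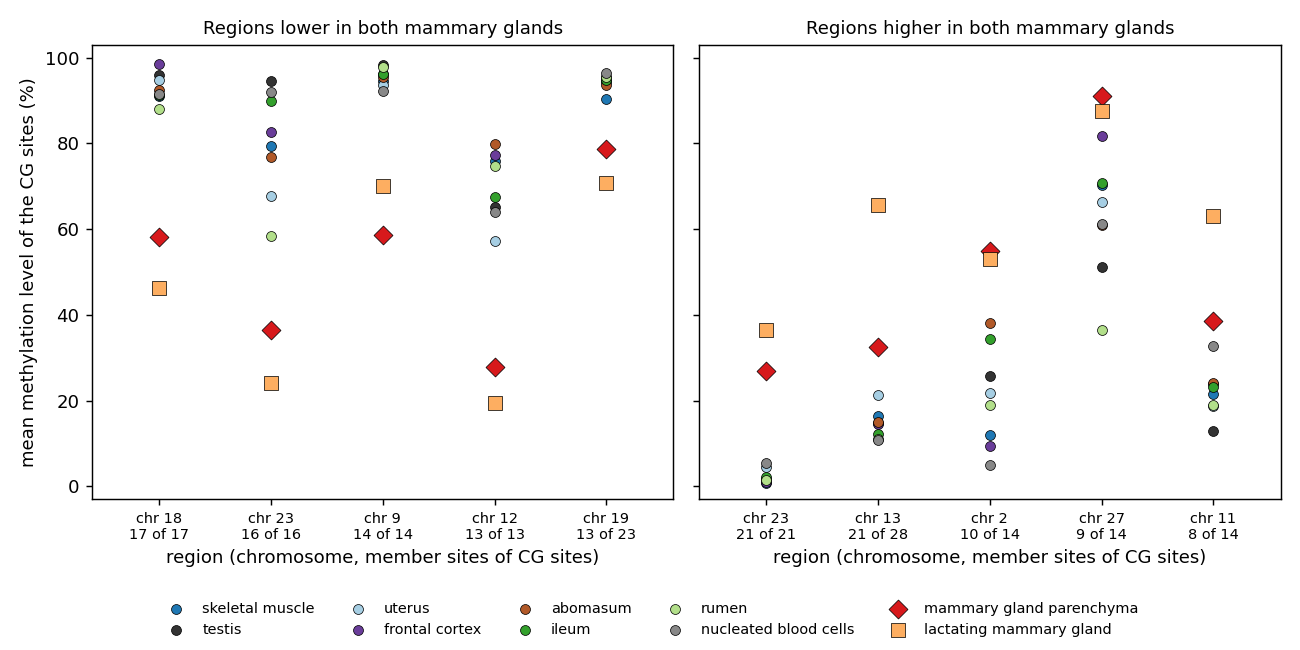
Mean methylation level (percent, vertical axis) of the 5 lower and the 5 higher regions with the most member sites, 1 column per region with its chromosome and the member sites among the CG sites averaged. Large diamonds and squares are mammary gland parenchyma and lactating mammary gland, circles are the 8 other tissues, and each point is 1 library. In the chromosome 18 region the glands lie at 58.2 % and 46.2 % under tissues from 88.0 % upward, and in the higher chromosome 23 region at 26.9 % and 36.4 % over tissues of at most 5.48 %.

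**Figure D2:**
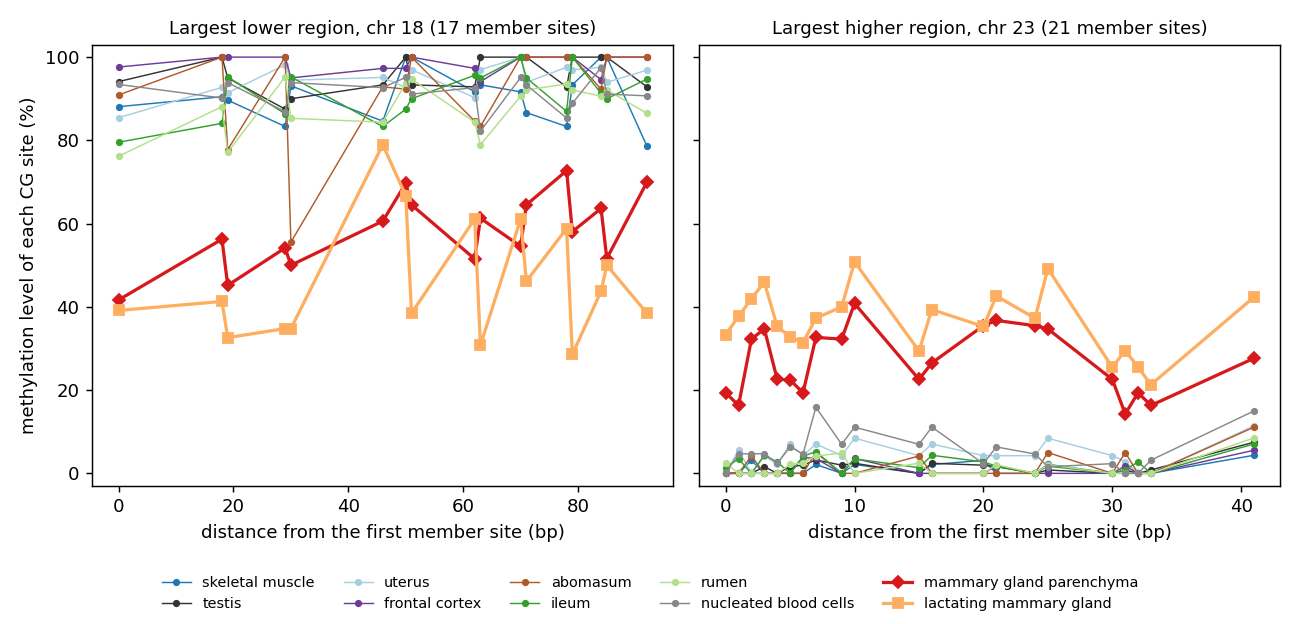
Level of each CG site (percent, vertical axis) by distance from the first member site (bp, horizontal axis) in the lower region of chromosome 18 and the higher region of chromosome 23, with 1 line per library. The lines of both glands run apart from those of the 8 tissues along the whole of each region, except for single sites of the lower region where abomasum or the lactating gland comes close to the other side. This separation follows from the rule, which kept every covered site of both regions.

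By the size of the gap rather than the number of sites, other regions led, and these were chosen after their values were seen. At chr5:120551344-120551384 the 4 reverse-strand sites averaged 26.0 % in parenchyma and 21.7 % in lactation, and the tissues 70.9 % (uterus) to 91.2 % (testis). The glands were 57.1 points below the mean of the tissues, the largest difference among the named lower regions. At its site 120551358 the 2 glands read 28 % of 25 reads (95 % Wilson interval 14.3 to 47.6) and 17.1 % of 35 reads (8.10 to 32.7), while the nearest tissue, uterus, read 74.5 % of 51 reads (61.1 to 84.5). Abomasum read 75 % of 12 reads, and its interval of 46.8 to 91.1 overlapped that of parenchyma. Wilson intervals cover the counting error of a single library and no more, as duplicate reads made by PCR could not be recognised.

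The largest difference among the named higher regions lay on chromosome 19 at chr19:39230289-39230311. Its 4 reverse-strand sites averaged 68.1 % and 74.4 % in parenchyma and lactating gland. The other tissues were at 3.12 % in abomasum, 4.31 % in frontal cortex, 6.82 % in ileum, 15.7 % in rumen, 17.0 % in skeletal muscle, 17.4 % in uterus, 28.2 % in nucleated blood cells and 29.4 % in testis. The value for abomasum rested on 8 reads, and the members of 1 strand in such a short stretch share most of their reads. At chr14:570412-570435 the glands were also far above the tissues (77.8 % and 63.9 % against 2.85 % to 46.5 %), but they carried 9 to 12 reads per site where testis, the lowest tissue, carried 268 to 293.

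Beyond the named regions, most gaps were small. The gap, the distance between the gland nearer to the tissues and the tissue nearest to the glands, had a median of 5.68 points for lower and 1.69 points for higher sites and reached 46.5 and 49.8 points. It was under 1 point at 119 lower and 348 higher sites. The threshold of the rule is a tie. At 18198 sites for the lower and 5813 for the higher direction, the gland nearer to the tissues tied exactly with the nearest tissue, and these were not kept. A further 248 and 616 sites lay within 1 point outside the threshold. The nearest of these had gaps of -0.0128 and -0.00567 points, and the nearest members 0.0444 and 0.00507 points. A gap of at least 25 points was left at 68 lower and 17 higher sites. As shares of all 51227 sites, the lower members were 1.62 % and the higher 1.93 %, and with a gap of at least 25 points 0.133 % and 0.0332 %. These shares describe the rule, which was applied to the same levels, and carry no test. Higher members thus outnumbered lower ones at any gap, and lower ones outnumbered higher ones from 1 point upwards. Ties were more frequent in the lower direction, so the 2 counts are not on equal terms.

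**Figure D3:**
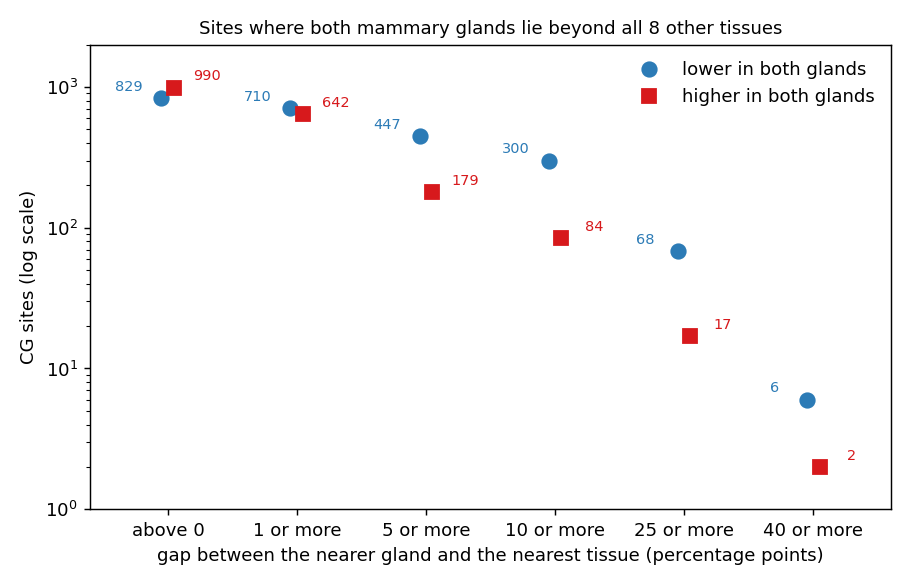
Number of CG sites (log scale, vertical axis) at which both glands lie beyond all 8 tissues with at least the gap on the horizontal axis (percentage points). Circles are sites lower and squares sites higher in both glands, falling from 829 to 6 and from 990 to 2.

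For a single gland the same rule gave more sites. Parenchyma alone was below all 8 tissues at 1946 sites and above them at 4145, and the lactating gland at 2203 and 4230. At 69 sites parenchyma was below and the lactating gland above all 8 tissues, and at 80 sites it was the reverse.

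Methylation at lower members was mostly partial in the glands. The 8 tissues averaged above 80 % at 458 of the 829 sites, from 20 to 80 % at 257 and below 20 % at 114, while the glands averaged from 20 to 80 % at 519. Over all lower members the median level was 44.5 % in glands and 82.5 % in tissues, and the median difference was -27.8 points (quartiles -39.3 and -14.4), beside -0.216 points over all 51227 sites. Among the 68 with a gap of at least 25 points, 58 were between 20 and 80 % in the glands, the range of their gland mean was 14.6 to 62.6 %, and all 8 tissues exceeded 80 % at 24. Higher members fell into different classes, with tissues below 20 % at 358, from 20 to 80 % at 356 and above 80 % at 276 of the 990 sites. Their median difference was 11.2 points (quartiles 5.51 and 19.3). All 17 with a gap of at least 25 points had a gland mean between 35.4 and 75.1 %, and the tissues averaged below 20 % at 14 of them.

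**Figure D4:**
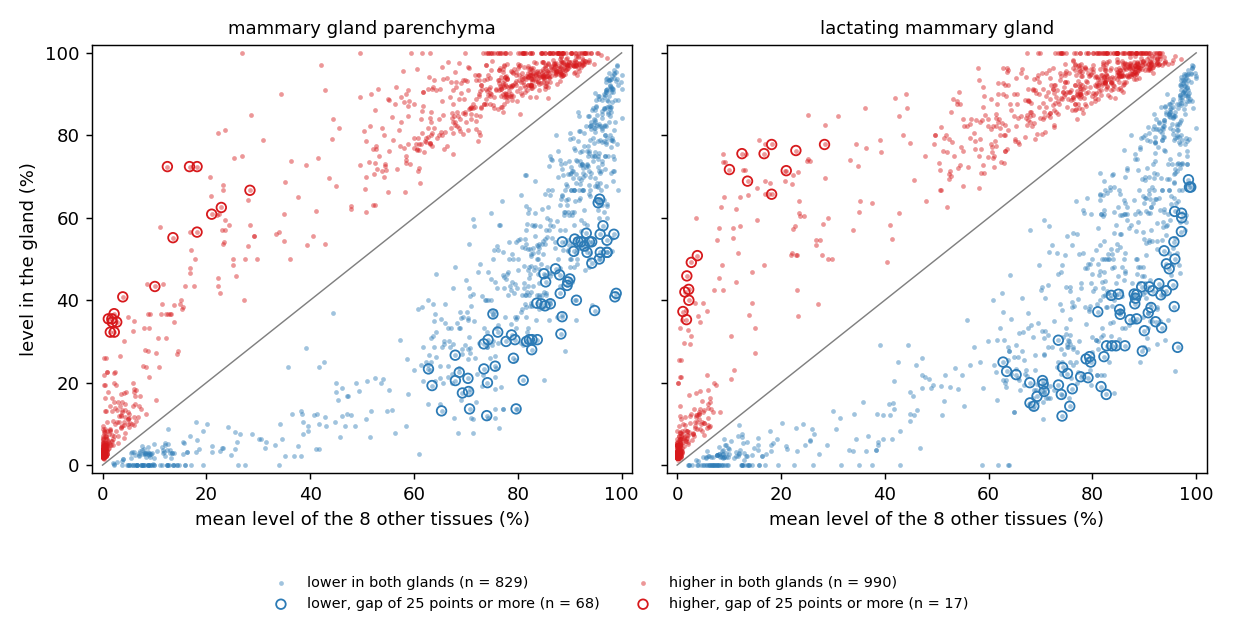
Level of each gland (percent, vertical axis) against the mean of the 8 other tissues (percent, horizontal axis) at the 1819 kept sites, parenchyma on the left and lactating gland on the right. Rings mark the 68 lower and 17 higher sites with a gap of at least 25 points, and the grey line is equality. The ringed lower sites lie at partial levels in the glands where the tissues are mostly highly methylated, and the ringed higher sites at partial levels where the tissues are mostly below 20 %.

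The nearest tissue was not the same at all sites. Among the 68 lower sites with a gap of at least 25 points it was rumen at 18, skeletal muscle at 15, abomasum at 11, uterus at 8, ileum at 7, nucleated blood cells at 5, testis at 2 and frontal cortex at 2. Over all 51227 sites testis was the lowest of the 8 tissues most often, at 41.7 % of those with a single lowest tissue, whereas rumen was lowest at 11.9 % and skeletal muscle at 9.12 %. Of the 17 higher sites with such a gap, nucleated blood cells were the nearest tissue at 8, and they were the highest tissue at 29.4 % of all sites with a single highest one. The higher chromosome 23 region held 8 of the 17 sites, and blood cells were the nearest tissue to the glands in its mean level. Over all sites the glands correlated more with each other (Pearson's r = 0.974 over 51227 sites) than with any tissue. Parenchyma followed with rumen (0.971) and uterus (0.970), the lactating gland with uterus (0.967) and rumen (0.963), and both had their lowest value with testis (0.915 and 0.915, rounded). These correlations are across sites, which are not independent, and most sites were near 0 or near 100 % in every library.

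The lactating gland lay further from the tissues than parenchyma at most sites with large gaps. It was the lower gland at 48 of the 68 lower sites (median difference, lactating minus parenchyma, -4.12 points) and the higher gland at 16 of the 17 higher sites (median 9.74 points). These sites are not independent. Of the 68 lower sites, 67 lay in 28 regions. The 17 higher sites lay in 6 regions, with 8 in the chromosome 23 region and 4 in that of chromosome 19. Counts by region were not made. With any gap the glands were near balance, the lactating gland being higher at 371 and lower at 415 lower members, and higher at 465 and lower at 476 higher members.

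Fisher's exact test on methylated and unmethylated reads showed how much of this single sites could carry at their depth. Each gland was compared with each tissue, with Benjamini-Hochberg adjustment over all sites within each of the 16 pairs, and a call needed a q under 0.01 with levels at least 25 points apart. Only 1 site, 0.00195 % of all, was called lower in all 16 pairs, and 0 sites (0 %) were called higher. With q below 0.05 these counts were 3 and 2. The called site was chr25:41800030 on the reverse strand, at 31.8 % of 44 reads in parenchyma and 40.5 % of 42 in the lactating gland. The tissues read 79.7 % in ileum, 84.6 % in testis, 84.9 % in uterus, 85.4 % in frontal cortex, 87.5 % in rumen, 91.9 % in nucleated blood cells, 92.5 % in skeletal muscle and 100 % of 15 reads in abomasum. The largest q was 0.00276.

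Calls in at least 8 pairs were found at 152 lower and 44 higher members, beside 0.408 % and 0.137 % of all sites in the same directions. The rule kept members on the same reads, so more frequent calls among them are set by the rule and are no result. The shares of all sites here and below include the members. Wilson intervals of both glands were apart from those of all 8 tissues at 14 and 11. The number of calls differed by tissue. Lower members were called against both glands most often with nucleated blood cells (290, beside 1.87 % of all sites) and least often with abomasum (20, beside 0.102 %), where they had a median of 11 reads. Higher members were called most often with testis (303, beside 4.25 % of all sites) and least with uterus (16, beside 0.0566 %). Median coverage over the 51227 sites was 12 reads in abomasum and 32 to 50 in the other 9 libraries, and that of the members 14 and 33 to 50. Levels near the minimum of 8 reads move in coarse steps, and a gap smaller than such a step cannot be told from counting error.

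Coverage also bore on the balance of directions. Sites with at least 20 reads in every library numbered 7147, of which 26 (0.364 %) were lower and 390 (5.46 %) higher members. These sites were different in level, since the 8 tissues averaged below 20 % at 30.9 % of them and at 65.1 % of all sites. No lower site with a gap of 10 points was among them, and of the 17 higher sites with a gap of at least 25 points, 8 were. Whether the reads, the kind of fragment or the level set this balance was not tested.

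The best covered members with the largest gaps are therefore mainly higher ones. The site 45472145 in the higher chromosome 23 region read 35.5 % of 31 reads in parenchyma (interval 21.1 to 53.1) and 35.3 % of 51 in the lactating gland (23.6 to 49.0), and the tissues read from 0 % in frontal cortex, abomasum and rumen to 4.26 % of 47 reads in uterus (1.17 to 14.2). At chr3:1022585, with 143 to 549 reads per library, the glands were at 58.2 % (53.1 to 63.2) and 69.7 % (65.0 to 74.0) and the highest tissue, abomasum, at 43.9 % (36.9 to 51.0). The gap was 14.4 points both there and at chr13:49004829, where the glands read 56.7 % and 57.1 % and the nearest tissue, uterus, 42.2 %. At chr9:65873619 the glands were at 81.4 % of 414 and 61.2 % of 621 reads, and the tissues ran from 1.66 % of 1569 reads in testis to 48.9 % of 235 in rumen, which left a gap of 12.3 points. The remaining 4 higher sites, on chromosomes 7, 23 and 28, had gaps of 8.33 to 13.6 points. Depth was uneven between libraries at some of these sites, as at chr28:1894322 with 85 reads in parenchyma and 1212 in the lactating gland. Why was not tested.

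Lower members with at least 20 reads everywhere had gaps of at most 7.70 points. The largest was at chr3:8110270, with 9.32 % of 236 reads in parenchyma (6.24 to 13.7) and 9.95 % of 201 in lactation (6.53 to 14.9), below tissues from 17.6 % of 68 reads in abomasum (10.4 to 28.4) to 29.9 % in frontal cortex. The intervals of the glands and of abomasum overlapped. Gaps of the other 7 lower sites named by the same rule were 1.66 to 5.15 points.

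Neighbouring members were joined when they lay at most 100 bp apart. The 829 lower members formed 376 regions, of which 237 were single sites and 89 held at least 3 members, and these 89 held 492 members (59.3 %). The 990 higher members formed 751 regions, 624 of them single sites, and 38 regions of at least 3 members held 188 of them. Large gaps were almost all in such regions, 67 of 68 lower and 17 of 17 higher, in 28 and 6 regions. The median length of the 89 and 38 regions was 31 and 32.5 bp, shorter than a sequencing read, so the sites of 1 strand in a region are mostly read on the same molecules and do not count as independent sites. With at least 20 reads per library, 2 lower and 12 higher regions of at least 3 members were left.

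Most sites that the rule did not keep inside these regions lay on the same side as the members. Inside the regions of at least 3 members, the mean of the glands was below that of the tissues at 150 of 156 other sites in lower regions, and above it at 106 of 120 in higher ones, beside 52.8 % and 39.5 % of all sites. Within 100 bp of any member the shares of other covered sites were smaller, 75.6 % of 2568 around lower and 55.7 % of 5800 around higher members. The opposite strand of the same CG, which is read from the complementary strand of the same fragment, was covered for 41 lower sites with a gap of at least 25 points, and all 41 were members themselves (median difference -44.4 points). The same was so at 12 of 12 higher sites (36.0 points). With any gap, 190 of 357 covered opposite strands were members for lower sites and 66 of 421 for higher sites.

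CG sites that were covered in both glands and only 4 to 7 tissues had not entered the rule. Within 100 bp of a lower member with a gap of at least 25 points there were 57 such sites, all with the glands lower on average, and at 40 (70.2 %) both glands were below every covered tissue, beside 3.61 % of all 67027 sites of this kind. Around higher members with that gap it was 11 of 16 (68.8 %), beside 1.43 %. Around members with any gap the shares were 23.3 % of 1052 and 5.71 % of 1296, and the glands were higher on average at only 45.6 % of those near higher members. These sites share fragments with the members and are no separate evidence of a difference between tissues.

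Lower members were concentrated towards the distal chromosome ends. Bovine autosomes are acrocentric and their coordinates run from the centromere. In the distal 10 % of a chromosome, up to its last covered cytosine, lay 511 lower members (61.6 %) and 50 of the 68 with a gap of at least 25 points (73.5 %), against 28.1 % of all sites and 18.4 % of higher members. The level in the tissues goes with this place, since 45.4 % of all sites at which the tissues averaged above 80 % were distal. Within that class 69.2 % of lower members were distal, and at tissue levels of 20 to 80 % it was 64.2 % of lower members against 24.5 % of all sites. Where the tissues averaged below 20 %, the shares were 25.4 % and 23.9 %. Counted as regions of at least 3 members, 60 of 89 lower (67.4 %) and 11 of 38 higher regions (28.9 %) were distal.

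**Figure D5:**
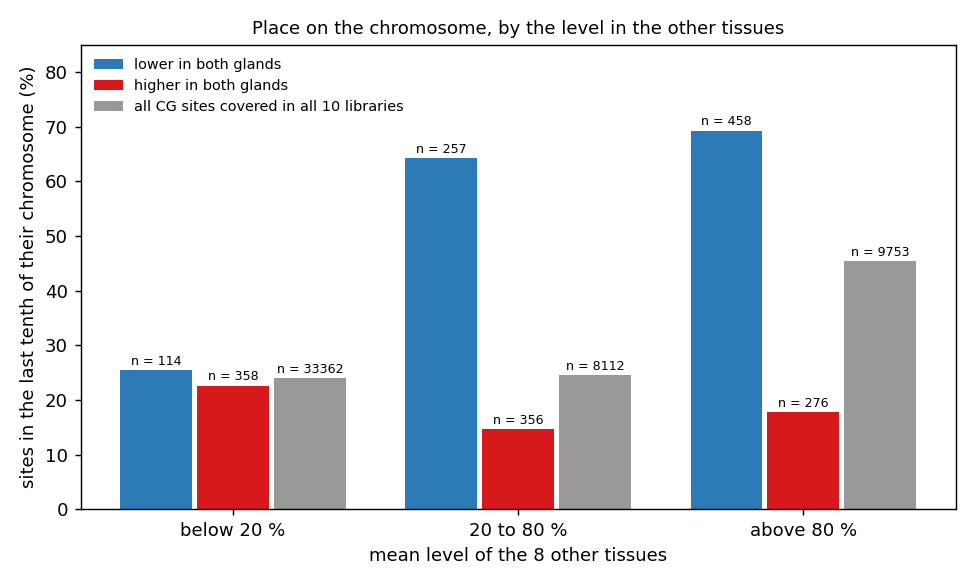
Percent of CG sites in the distal 10 % of their chromosome (vertical axis) by the mean level of the 8 other tissues (horizontal axis), for lower members, higher members and all sites covered in all 10 libraries, with the number of sites above each bar. Lower members exceed all sites at tissue levels of 20 to 80 % (64.2 and 24.5 %) and above 80 % (69.2 and 45.4 %), and only slightly below 20 % (25.4 and 23.9 %).

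By chromosome, the share of sites that were lower members was highest on chromosome 16 (3.35 % of 1671), chromosome 18 (3.25 % of 2061), chromosome 29 (3.21 % of 1557) and chromosome 12 (3.08 % of 1333), and chromosome 28 had 0 of 724. Higher members were most frequent on chromosome 27 (4.43 % of 1039) and chromosome 8 (3.29 % of 1856). The 68 lower sites with a gap of at least 25 points were spread over 17 chromosomes, with 12 on chromosome 12 and 10 on chromosome 18, and the 17 higher ones over 6, with 8 on chromosome 23. The fragment-end CCGG held 23.0 % of lower and 18.1 % of higher members, and 12.9 % of all sites, but 10.3 % and 0 % of those with a gap of at least 25 points. Higher sites with such a gap had a median of 17 other covered CG within 100 bp, but 8 of these 17 sites lay in the 1 chromosome 23 region. The median was 8 for all higher members, 7 for lower members and 9 for all sites.

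The rule selected the single regions for their contrast, but not the level as a whole, which showed no clear difference between glands and tissues. Over the 51227 sites the mean CG level was 28.1 % in parenchyma and 28.3 % in the lactating gland, and 28.2 % ± 2.29 (SD, n = 8) in the tissues, whose range was 24.1 % in testis to 31.8 % in nucleated blood cells. The difference was -0.0423 points (two-sided exact permutation test over 45 arrangements, p = 0.978). The share of sites from 20 to 80 % was 13.6 % and 13.2 % in the glands and 15.5 % ± 2.85 in the tissues, a difference of -2.04 points (exact permutation p = 0.311, 0.622 after Benjamini-Hochberg adjustment over 6 values). Shares below 20 % and above 80 % differed by 0.792 and 1.24 points (exact permutation p = 0.489 and 0.667). Without testis the share above 80 % differed by 0.188 points and that from 20 to 80 % by -1.22 points. Too few arrangements were left in that setting for any p below 0.05, so it carries no test. With at least 20 reads these shares differed by 8.87 and -9.23 points, neither past the threshold. Outside CG, the mean level was -0.0597 points different at CHG and -0.0677 points at CHH sites (exact permutation p = 0.311 and 0.267, both 0.622 adjusted). The smallest p that all 10 libraries allow is 0.0444, and the tests treat the 2 glands and the 8 tissues as samples of their side. A single value at that p could not fall below 0.05 after adjustment over the 6 values.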

How the data were processed

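RRBS libraries of 10 bovine tissues, 1 per tissue, were grouped as 2 mammary glands and 8 other tissues from the sample labels, and sex and stage were taken from the study's sample list. Trimming, alignment to UMD3.1 with a pipeline built on SOAPaligner and the choice of unique alignments were done by the authors. Per cytosine with at least 8 reads they deposited the reads on its strand as a count, the methylation level as a fraction, and a number of reads with its p-value and FDR, which were not used. Methylated reads were the level times the reads. Reads summed over autosomal cytosines ranged from 15214928 in abomasum to 38869269 in testis.

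Sites with both glands strictly beyond all 8 tissues were kept. Regions join members at most 100 bp apart, and their levels are means over all covered sites in them, each given without weighting. Named sites are the 8 lower and 8 higher members with the largest gap and at least 20 reads in every library, at most 1 per region. Named regions are the 5 lower and 5 higher with the most members. The members, rules and lists were chosen with earlier results of these data known. Fisher's exact test, exact permutation tests and Wilson intervals were computed with Python 3.11.15, NumPy 2.4.6, SciPy 1.17.1, pandas 2.3.3 and Numba 0.67.0, and figures with matplotlib 3.10.9. With 1 library per tissue, Fisher's test compares libraries. Alternatives were coverage minimums of 10 and 20 reads, summed strands, other gaps, thresholds and joining distances, leaving out each library, and weighting by coverage. Gene lists were not analysed here, as no annotation of UMD3.1 was used.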

Additional observations from a re-analysis of the deposited data

How the results depend on the processing

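With at least 20 reads in every library there were 26 lower and 390 higher members, 0 and 8 with a gap of at least 25 points, 0 and 1 called in all 16 pairs, and 2 and 12 regions of at least 3 members. Of the counts, a minimum of 10 reads moved that of higher sites with a gap of at least 25 points by over 1.5 times, to 9. A gap of at least 10 points gave 300 lower and 84 higher sites, and one of 40 points 6 and 2. With q below 0.05, 3 sites were called lower and 2 higher in all 16 pairs, and with a difference of at least 40 points 0 lower. Leaving out 1 library, which loosens the rule, gave 873 to 2203 lower and 1037 to 4230 higher members, 68 to 263 and 17 to 119 with a gap of at least 25 points, and 1 to 37 and 0 to 24 called sites. The highest count of each came without a gland. Of the tissues, leaving out nucleated blood cells raised the higher members to 1647, leaving out abomasum the called sites to 5 lower and 4 higher, and leaving out testis or uterus the called lower sites to 2. Without the lactating gland 3 sites were called higher. The difference in mean CG level turned positive with at least 10 reads (0.245 points), at least 20 reads (3.50 points) and weighting by coverage (2.70 points), and it was past the threshold under none of them. Of 47 alternatives for the differences of 17 regions, chosen after seeing the data, 45 moved them by less than the SD of the tissues and 2 by more (chromosomes 19 and 11 with at least 10 reads, -17.0 and 18.5 points), with 0 changes of sign. No paired analysis was possible because the labels give no replicate numbers shared between tissues. On chromosome 11 a minimum of 10 reads left only reverse-strand sites, and the cause of the other changes was not tested. Abomasum had a median of 12 reads, which limits single sites.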
